A study of Saccharomyces cerevisiae S288C with 24 samples.

Results

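The 10 genes described here encode the enzymes, carriers and activator with which *Saccharomyces cerevisiae* makes sugar from small carbon compounds such as acetate, ethanol and lactate. They were chosen by name, with no cut on their values, but earlier results of these data were known. Each was matched to 1 of the 6905 loci that could be used of 6929 in the expression table. All 10 matched, and none shared its locus with, or overlapped, another annotated gene. The strains were BY4741 (WT), a laboratory haploid of mating type a, and Sc12, which is BY4741 from the yeast knockout collection with *TRP5* replaced by a G418 resistance cassette. BY4741 itself lacks *HIS3*, *LEU2*, *MET15* and *URA3*, so all cultures shared these deletions. *TRP5* encodes tryptophan synthase, the enzyme of the last step of tryptophan synthesis. Each strain was grown in YPD, a rich glucose medium, for 24 h, and 1.2% isobutanol (IB) and 200 µg/ml tryptophan (Trp) were each either added or left out. This gave 8 groups of 3 RNA-seq libraries, named by the strain and its additions, as in WT or Sc12 + IB + Trp. Sc12 is 1 deletion strain. The study describes 3 replicates per treatment, but does not state outright that each was a culture of its own, so part of the spread behind the p-values may be technical.

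In gluconeogenesis, yeast runs glycolysis backwards and replaces its irreversible steps with *PCK1*, which encodes phosphoenolpyruvate carboxykinase, and *FBP1*, which encodes fructose-1,6-bisphosphatase. The glyoxylate cycle lets cells build malate and succinate from acetate without losing carbon as carbon dioxide, through isocitrate lyase (*ICL1*), malate synthase (*MLS1*), cytosolic malate dehydrogenase (*MDH2*) and peroxisomal citrate synthase (*CIT2*). *ACS1* encodes an acetyl-CoA synthetase, *SFC1* the mitochondrial succinate-fumarate carrier, *JEN1* the plasma membrane lactate and pyruvate transporter, and *CAT8* a zinc cluster activator of most of these genes. Glucose represses the group, and the genes come on when glucose runs out and ethanol or acetate is used. *CIT2* is known for a further form of control, the retrograde pathway from mitochondria to nucleus. All cultures were harvested at 24 h. The study reports that Sc12 grew worse than WT under isobutanol and recovered with added tryptophan. It reports no glucose measurement, so differences in growth or glucose use cannot be told apart from the other differences between the groups.

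Library depth ranged from 5218712 to 14580261 estimated fragments. The least covered members in any library were *MLS1* with 193 fragments, *SFC1* with 355 and *FBP1* with 393. *TRP5* had 2921 to 8481 fragments in the 12 libraries of WT and 0 to 11 in the 12 libraries of Sc12. Levels are given as CPM, counts relative to library size after TMM scaling, which sets the bulk of loci equal between libraries. The scaling factor was 0.588 to 0.687 in the Sc12 + IB libraries and 0.970 to 1.144 in the others. When scaled by library totals instead, all loci had a median log2 fold change of -0.84 in Sc12 + IB vs Sc12 rather than -0.02, so changes in Sc12 + IB are relative to the bulk of loci. A smaller share of the library and less RNA per cell cannot be told apart. Replicate 2 of WT + IB + Trp and replicate 2 of Sc12 + IB + Trp were the lowest of their group in 10 of 10 members. Replicate 2 was the lowest in 9 members in WT + Trp, 8 in WT and 6 in Sc12. In Sc12 + IB it was the lowest in 4, in WT + IB in 2 and in Sc12 + Trp in 0. The labels mark 1 library of Sc12 (replicate 3) and 1 of Sc12 + Trp (replicate 1) as make-up data, and without these the counts of called genes in every comparison were those given here.

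Cat8 and its relative Sip4 activate through the carbon source-responsive element (CSRE), and the repressor Mig1 binds GC-rich sites. The 500 bases before each start codon were searched on both strands in the RefSeq R64 genome, for the CSRE consensus (CC, any base, TT, any 3 bases, CCG) and for the Mig1 core (NNGGGG, with C or G as the first letter and C or T as the second). The CSRE letters were found before 5 of the 10 genes and before 155 of 6006 yeast genes (2.58%). Most of the 10 genes are already known as targets of Cat8, so these shares are a description and no test. The Mig1 letters were found before 6 of the 10 and before 1364 of 6006 genes (22.7%). The CSRE matches of *ICL1*, *MLS1*, *PCK1*, *MDH2* and *ACS1* are shown first, so that they can be set beside the responses of these genes, and the Mig1 matches of *CAT8* and *FBP1* follow. Capitals mark the matched letters.
*ICL1*, chrV:287290-287324, minus strand: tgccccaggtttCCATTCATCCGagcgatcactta
*MLS1*, chrXIV:405846-405880, plus strand: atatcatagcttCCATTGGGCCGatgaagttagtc
*PCK1*, chrXI:630659-630693, plus strand: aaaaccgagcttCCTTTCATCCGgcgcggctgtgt
*PCK1*, chrXI:630778-630812, minus strand: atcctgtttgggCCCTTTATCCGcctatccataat
*MDH2*, chrXV:83331-83365, plus strand: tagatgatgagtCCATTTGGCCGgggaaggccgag
*MDH2*, chrXV:83298-83332, minus strand: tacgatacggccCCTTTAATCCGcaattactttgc
*MDH2*, chrXV:83275-83309, minus strand: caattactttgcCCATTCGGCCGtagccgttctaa
*ACS1*, chrI:45425-45459, plus strand: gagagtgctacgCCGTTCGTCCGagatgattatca
*ACS1*, chrI:45371-45405, minus strand: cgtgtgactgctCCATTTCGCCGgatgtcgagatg
*CAT8*, chrXIII:831548-831567, minus strand: tggagcgGCGGGGctgatat
*CAT8*, chrXIII:831532-831551, minus strand: atattttGTGGGGtacgaaa
*FBP1*, chrXII:875250-875269, minus strand: ttcacctCCGGGGtattatt
*FBP1*, chrXII:874978-874997, plus strand: atatagtGTGGGGaagatgc

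**Figure D1:**
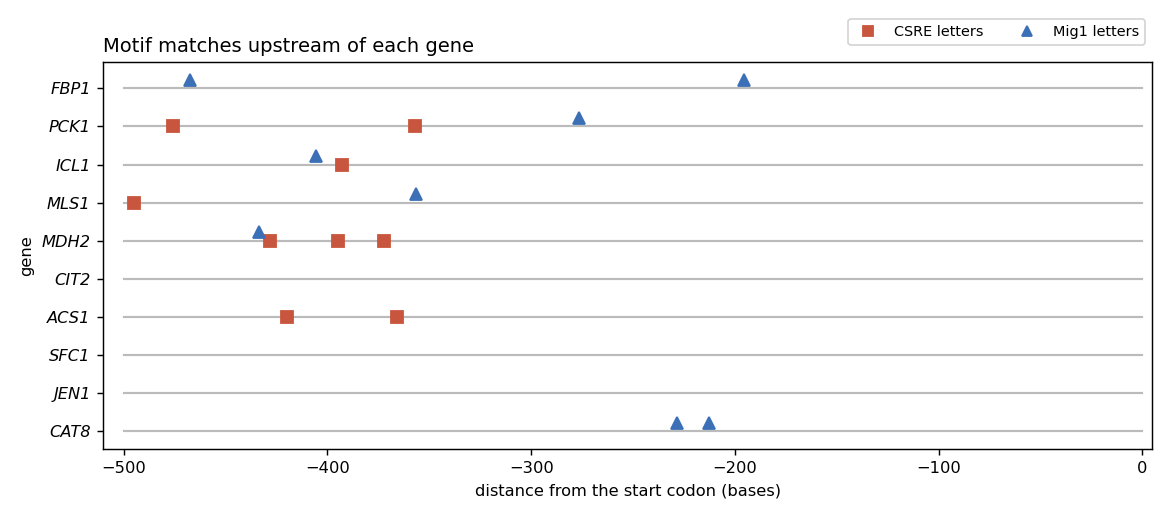
Positions of the CSRE letters (squares) and the Mig1 letters (triangles) in the 500 bases before the start codon of each gene, in bases from the start codon. *MDH2* had 3 CSRE matches, *PCK1* and *ACS1* 2 each, *ICL1* and *MLS1* 1 each, and the other 5 genes none.

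One Mig1 match of *MDH2* overlapped its most distant CSRE match. No match means only that these letters are not in the window. *FBP1*, *SFC1*, *JEN1* and *CAT8* had no CSRE letters, and neither kind was found before *CIT2*, *SFC1* or *JEN1*.

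Isobutanol moved 7 of the 10 genes differently in the strains, by the interaction test given further below. A gene is called here when its fold change is above 2 (1 on the log2 scale) and its edgeR quasi-likelihood p, adjusted by Benjamini-Hochberg over 6346 loci, is below 0.05. In WT + IB vs WT, 4 members were higher (*PCK1*, *MLS1*, *FBP1* and *SFC1*) and 1 was lower (*MDH2*), against 20.7% of all loci called (11.8% higher and 8.89% lower). In Sc12 + IB vs Sc12, 7 were lower (*MLS1*, *ICL1*, *FBP1*, *JEN1*, *SFC1*, *PCK1* and *ACS1*) and 1 was higher (*CIT2*), against 27.8% of all loci (17.2% higher and 10.6% lower). The median log2 fold change of the 10 was 0.76 in WT and -1.57 in Sc12, and that of all loci was -0.0026 and -0.02. Libraries did not overlap for 9 of the 10 members in WT + IB vs WT, against 74.8% of all loci. In Sc12 + IB vs Sc12 this held for 10 of 10 members, against 78.5% of all loci. Together the 10 genes took 0.814 to 0.913% of the fragments of a library in WT, 0.979 to 1.12% in WT + IB, 0.955 to 0.982% in Sc12 and 0.369 to 0.421% in Sc12 + IB. These are shares of library totals, so the shift of the bulk of loci in Sc12 + IB given above is part of them. After TMM scaling the 10 genes together were at 8348 to 8681 CPM in Sc12 and 5905 to 6281 CPM in Sc12 + IB. In WT they were at 7793 to 8653 CPM and in WT + IB at 9905 to 10750 CPM.

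**Figure D2:**
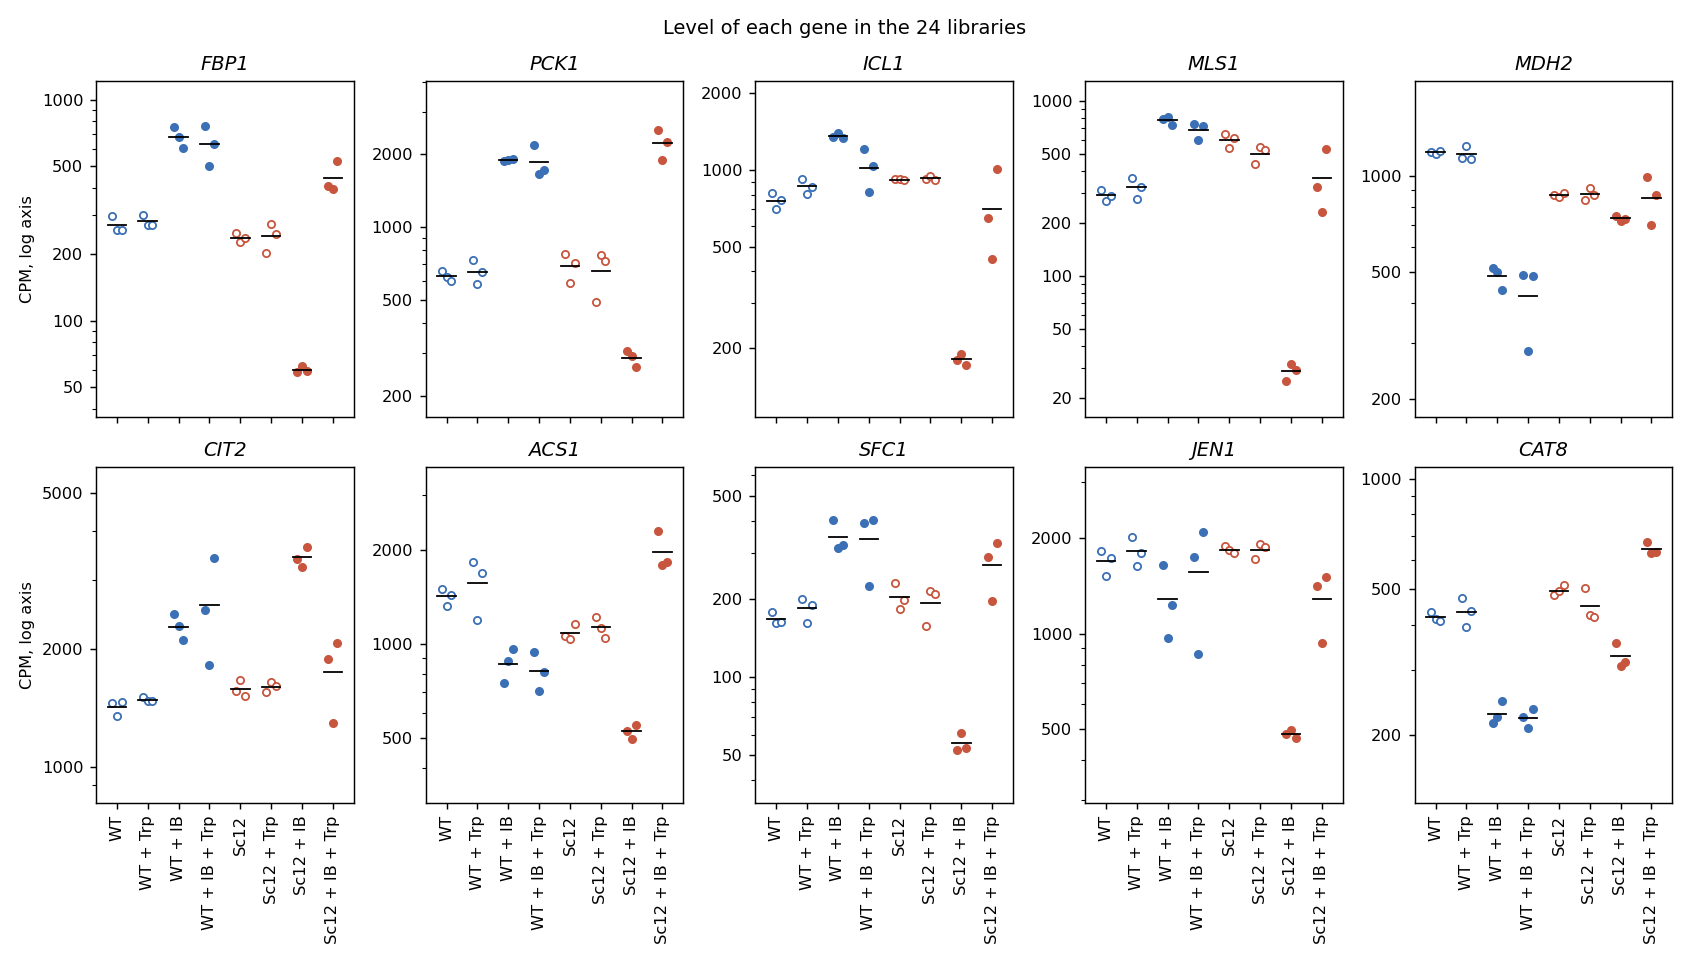
Level of each gene in CPM on a log axis, 1 panel per gene, in the 24 libraries of the 8 groups. Points are libraries (WT blue, Sc12 red, open without isobutanol, filled with isobutanol) and lines are group means. For *FBP1*, *PCK1*, *ICL1*, *MLS1*, *SFC1*, *JEN1* and *ACS1*, the 3 Sc12 + IB libraries lie below all 21 others. The share of all loci for which this holds was not counted.

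The gluconeogenic pair rose in WT and fell in Sc12. *FBP1* (YLR377C, chrXII:873746-874792, minus strand) was at 297, 257 and 257 CPM in WT and at 756, 680 and 607 CPM in WT + IB. Sc12 libraries had 249, 228 and 237 CPM, and Sc12 + IB libraries 58.81, 62.2 and 59.25 CPM. The groups with and without isobutanol did not overlap in either strain, and they differed in opposite directions. *FBP1* was 2.52-fold higher with isobutanol in WT (log2 fold change 1.33, SE 0.13, adjusted p = 6.65e-09) and 3.97-fold lower in Sc12 (log2 fold change -1.99, SE 0.14, adjusted p = 1.26e-11). *PCK1* (YKR097W, chrXI:631152-632801, plus strand) was at 658, 621 and 600 CPM in WT and at 1884, 1902 and 1921 CPM in WT + IB. In Sc12 it was at 770, 589 and 710 CPM, and in Sc12 + IB at 306, 294 and 262 CPM. Its 3 WT + IB libraries were the closest together of any group, with an SD of 18.6 CPM. *PCK1* was 3.04-fold higher in WT (log2 fold change 1.602, SE 0.15, adjusted p = 2.71e-09) and 2.40-fold lower in Sc12 (log2 fold change -1.26, SE 0.15, adjusted p = 9.01e-08).

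The enzymes that belong to the glyoxylate cycle alone showed the deepest fall. *MLS1* (YNL117W, chrXIV:406358-408022, plus strand) was at 312.1, 270 and 286.5 CPM in WT and at 786, 814 and 730 CPM in WT + IB. In Sc12 its 3 libraries were at 651, 538 and 616 CPM, above all WT libraries, and in Sc12 + IB they were at 25.1, 31.5 and 29.1 CPM. The isobutanol groups were separate in both strains. *MLS1* was 2.68-fold higher in WT (log2 fold change 1.42, SE 0.19, adjusted p = 4.14e-07) and 21.1-fold lower in Sc12 (log2 fold change -4.40, SE 0.22, adjusted p = 1.48e-14). *ICL1* (YER065C, chrV:285241-286914, minus strand), the partner step, was at 810, 702 and 759 CPM in WT and at 1353, 1398 and 1337 CPM in WT + IB. In Sc12 it was at 918, 923 and 910 CPM, and in Sc12 + IB at 179, 190 and 172 CPM. The 1.80-fold difference in WT was below the fold threshold (log2 fold change 0.85, SE 0.18, adjusted p = 1.69e-04), and the level was 5.09-fold lower in Sc12 (log2 fold change -2.35, SE 0.19, adjusted p = 7.13e-11).

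*MDH2* and *CIT2*, whose products stand beside these enzymes in the cycle, went other ways. *MDH2* (YOL126C, chrXV:81787-82920, minus strand) was at 1185, 1166 and 1198 CPM in WT and at 513, 501 and 439 CPM in WT + IB. Its Sc12 libraries had 874, 856 and 884 CPM and its Sc12 + IB libraries 749, 725 and 734 CPM. The fall in WT was called (log2 fold change -1.29, SE 0.15, adjusted p = 4.96e-08). In Sc12 the libraries did not overlap, but the difference did not pass the test (log2 fold change -0.24, SE 0.14, adjusted p = 0.134). *CIT2* (YCR005C, chrIII:120946-122328, minus strand) was at 1453, 1350 and 1460 CPM in WT and at 2446, 2283 and 2104 CPM in WT + IB. In Sc12 it was at 1558, 1666 and 1513 CPM, and in Sc12 + IB at 3391, 3238 and 3635 CPM. It was thus the member with the highest level per length in Sc12 + IB, at 2474 CPM per kb of coding sequence, where *MLS1* was the lowest at 17.2 CPM per kb. The log2 fold change of *CIT2* was 0.68 in WT (SE 0.17, adjusted p = 9.55e-04, below the fold threshold) and 1.12 in Sc12 (SE 0.17, adjusted p = 2.79e-06). When scaled by library totals, the *CIT2* call in Sc12 was lost (log2 fold change 0.29, adjusted p = 0.113), whereas *MDH2* and *CAT8* were then called lower in Sc12 + IB vs Sc12 (log2 fold changes -1.07 and -1.42).

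Among the carriers, *SFC1* (YJR095W, chrX:609773-610741, plus strand) followed the gluconeogenic genes. It was at 178, 162 and 162 CPM in WT, at 403, 313 and 324 CPM in WT + IB, at 231, 184 and 198 CPM in Sc12 and at 52.6, 60.8 and 53.5 CPM in Sc12 + IB. The log2 fold change was 1.05 in WT (SE 0.18, adjusted p = 2.13e-05) and -1.88 in Sc12 (SE 0.20, adjusted p = 8.80e-09). The WT call of *SFC1* lay close to the fold threshold and was lost without WT + IB replicate 1 (0.92), with library totals (0.99) and with limma on log2(FPKM + 1) (0.85). *JEN1* (YKL217W, chrXI:22234-24084, plus strand) had 1827, 1526 and 1730 CPM in WT and 1650, 970 and 1233 CPM in WT + IB, and these groups overlapped. In Sc12 it was at 1887, 1835 and 1800 CPM and in Sc12 + IB at 484, 499 and 470 CPM. *JEN1* was 3.80-fold lower in Sc12 (log2 fold change -1.93, SE 0.23, adjusted p = 8.71e-08), and in WT its log2 fold change of -0.40 (SE 0.22) did not pass the test (adjusted p = 0.116).

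The acetate-activating enzyme and the activator had lower mean levels with isobutanol in both strains, and the difference was called for *ACS1* in Sc12. *ACS1* (YAL054C, chrI:42881-45022, minus strand) was at 1498, 1324 and 1430 CPM in WT and at 749, 879 and 964 CPM in WT + IB. In Sc12 it was at 1062, 1037 and 1158 CPM and in Sc12 + IB at 527, 496 and 550 CPM. The *ACS1* log2 fold change was -0.71 in WT (SE 0.14, adjusted p = 1.13e-04, below the fold threshold) and -1.05 in Sc12 (SE 0.14, adjusted p = 6.85e-07). *CAT8* (YMR280C, chrXIII:827028-831329, minus strand) was at 433, 415 and 408 CPM in WT, at 215, 224 and 247 CPM in WT + IB, at 482, 493 and 512 CPM in Sc12 and at 357, 309 and 317 CPM in Sc12 + IB. The groups with and without isobutanol did not overlap, and the difference stayed below 2-fold in both strains (log2 fold change -0.87, SE 0.09, adjusted p = 7.79e-09 in WT, and -0.60, SE 0.09, adjusted p = 2.14e-06 in Sc12). Over the 24 libraries, which share groups and depth, Pearson r of log2(CPM + 1) was -0.24 for *CAT8* with *FBP1*, 0.75 with *MDH2* and 0.71 with *ACS1*. Among *FBP1*, *PCK1*, *ICL1*, *MLS1* and *SFC1* the 10 pairs had r of 0.64 to 0.97.

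**Figure D3:**
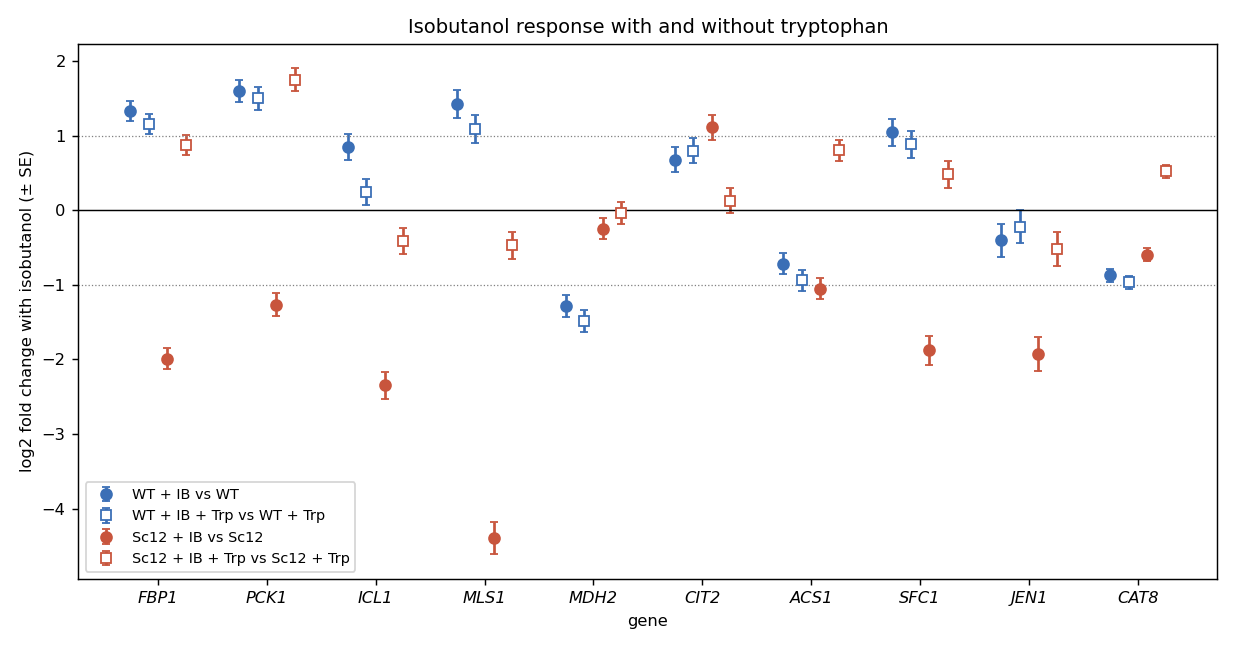
Log2 fold change (± SE) with isobutanol for each gene, in WT (blue) and Sc12 (red), without tryptophan (circles) and with tryptophan (squares). Dotted lines mark the fold threshold of 1. In Sc12 the *MLS1* value moves from -4.40 to -0.47 and the *PCK1* value from -1.26 to 1.75 when tryptophan is present.

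With tryptophan alone, 0 of the 10 genes were called in either strain by edgeR, DESeq2 or limma. In WT + Trp vs WT the log2 fold changes were between -0.02 and 0.19, with 0.0158% of all loci called, and 0 members and 449 loci had an unadjusted p below 0.05. In Sc12 + Trp vs Sc12 they were between -0.26 and 0.05, with 0.378% of all loci called (0.0315% higher and 0.347% lower) and 0 members and 662 loci at an unadjusted p below 0.05. In WT + IB + Trp vs WT + IB the range was -0.42 to 0.29, and 0 members and 0% of all loci were called, with 1 member (*ICL1*) and 970 loci at an unadjusted p below 0.05. Standard errors of these members' log2 fold changes were 0.09 to 0.22. The response to isobutanol in the presence of tryptophan was tested on its own. In WT + IB + Trp vs WT + Trp, *FBP1* (1.16), *PCK1* (1.502) and *MLS1* (1.09) were called higher and *MDH2* (-1.48) lower, against 19.7% of all loci (11.2% higher and 8.56% lower). The calls of *FBP1* and *MLS1* there lay at the threshold, at 0.996 without WT + IB + Trp replicate 1 for *FBP1* and at 0.995 without WT + Trp replicate 2 for *MLS1*, both then not called. Among the uncalled, *SFC1* (0.88) was called without WT + IB + Trp replicate 2 (1.10), *ACS1* (-0.94) without WT + Trp replicate 2 (-1.10) or WT + IB + Trp replicate 1 (-1.06), and *CAT8* (-0.96) without WT + Trp replicate 2 (-1.03) or WT + IB + Trp replicate 3 (-1.0).

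In Sc12 under isobutanol, tryptophan raised 7 of the 10 genes, against 24% of all loci called (9.39% higher and 14.6% lower). *MLS1* was at 322, 232 and 533 CPM in Sc12 + IB + Trp, where Sc12 + IB had 25.1 to 31.5 CPM, a 12.7-fold difference (log2 fold change 3.67, SE 0.21, adjusted p = 3.36e-13). *PCK1* was at 2515, 1898 and 2247 CPM against 262 to 306 CPM (2.95, SE 0.16, adjusted p = 8.69e-14). *FBP1* was at 409, 394 and 527 CPM against 58.8 to 62.2 CPM (2.88, SE 0.15, adjusted p = 2.00e-14). None of these 3 genes had overlapping libraries, nor did 72.6% of all loci in this comparison. The log2 fold change was 2.29 (SE 0.20) for *SFC1*, 1.96 (SE 0.18) for *ICL1*, 1.91 (SE 0.15) for *ACS1* and 1.41 (SE 0.23) for *JEN1*. *CIT2*, which was higher with isobutanol in Sc12, was at 1879, 1295 and 2072 CPM with tryptophan against 3238 to 3635 CPM without. Its log2 fold change of -0.97 (SE 0.17, adjusted p = 1.96e-05) fell short of the fold threshold, as did that of *CAT8* (0.98, SE 0.09, adjusted p = 9.74e-10). Both values lay close to the threshold. *CAT8* was called with library totals (1.72), where the median of all loci was 0.77. It was also called with limma at both pseudocounts (1.12 at the larger), and *CIT2* with limma (-1.03). *CIT2* was also called without Sc12 + IB replicate 2 (-1.02) or Sc12 + IB + Trp replicate 1 (-1.02) or 3 (-1.11), and *CAT8* without Sc12 + IB replicate 1 (1.04). *MDH2* libraries overlapped (0.22, SE 0.14, adjusted p = 0.188).

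With tryptophan, *PCK1* was the 1 member called between isobutanol and no isobutanol in Sc12, against 17.9% of all loci (9.93% higher and 8.02% lower). It was 3.37-fold higher in Sc12 + IB + Trp than in Sc12 + Trp (log2 fold change 1.75, SE 0.15, adjusted p = 8.67e-10), where its libraries were at 488, 765 and 723 CPM. *FBP1* differed by 0.88 (SE 0.13), *ACS1* by 0.81 (SE 0.14), *CAT8* by 0.52 (SE 0.09) and *JEN1* by -0.52 (SE 0.22), all below the fold threshold. With *PCK1* these were the 5 of 10 members whose libraries did not overlap, against 72.1% of all loci. With limma *FBP1* was called as well (1.01 at both pseudocounts). *ICL1* (-0.41, SE 0.18) and *MLS1* (-0.47, SE 0.18) had overlapping libraries. Their Sc12 + IB + Trp libraries were widely spread, from 449 to 1006 CPM for *ICL1* and from 232 to 533 CPM for *MLS1*, with replicate 2 the lowest of both.

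Without isobutanol, few of these genes were called between the strains. In Sc12 vs WT, *MLS1* was the 1 member called, 2.08-fold higher in Sc12 (log2 fold change 1.05, SE 0.19, adjusted p = 1.02e-04), against 3.31% of all loci (1.78% higher and 1.53% lower). This call was lost without Sc12 replicate 1 (0.99) and with limma on log2(FPKM + 1) (0.96). Regardless of fold change, 4 of the 10 members and 2615 of 6346 loci had an edgeR adjusted p below 0.05 in Sc12 vs WT. Libraries did not overlap for 8 members there, against 66.7% of all loci. In Sc12 + Trp vs WT + Trp 0 members were called, against 3.21% of all loci (1.56% higher and 1.65% lower), with *MLS1* at 0.64 (SE 0.18, adjusted p = 0.00765). DESeq2 and limma also called 0 members there, and 3 had an unadjusted p below 0.05 with edgeR. In Sc12 + IB vs WT + IB, 6 members were lower, against 27.2% of all loci (16.1% higher and 11.1% lower). *MLS1* was 27.2-fold lower, *FBP1* 11.3-fold, *ICL1* 7.56-fold, *PCK1* 6.62-fold, *SFC1* 6.23-fold and *JEN1* 2.65-fold. *ACS1* (-0.72, SE 0.14) was below the fold threshold, and with library totals it was called lower as well (-1.37, adjusted p = 4.91e-09). The median of all loci was then -0.67. With both additions, 3 members were higher in Sc12 than in WT and none was lower, against 24% of all loci (11.8% higher and 12.2% lower). *CAT8* was at 674, 628 and 633 CPM in Sc12 + IB + Trp and at 224, 209 and 235 CPM in WT + IB + Trp (log2 fold change 1.54, SE 0.09, adjusted p = 1.13e-12). These 3 Sc12 + IB + Trp libraries of *CAT8* lie above all 21 other libraries. *ACS1* was at 2298, 1792 and 1826 CPM against 940, 707 and 812 CPM (1.27, SE 0.14, adjusted p = 4.71e-08). *MDH2* was at 991, 700 and 872 CPM against 490, 282 and 486 CPM (1.03, SE 0.15, adjusted p = 1.34e-06), and this call was lost without WT + IB + Trp replicate 2 (0.83) or without Sc12 + IB + Trp replicate 1 (0.91). *MLS1* (-0.92, SE 0.18) was below the fold threshold. It was called lower without Sc12 + IB + Trp replicate 3 (-1.30) and with limma at both pseudocounts (-1.09 and -1.10).

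**Figure D4:**
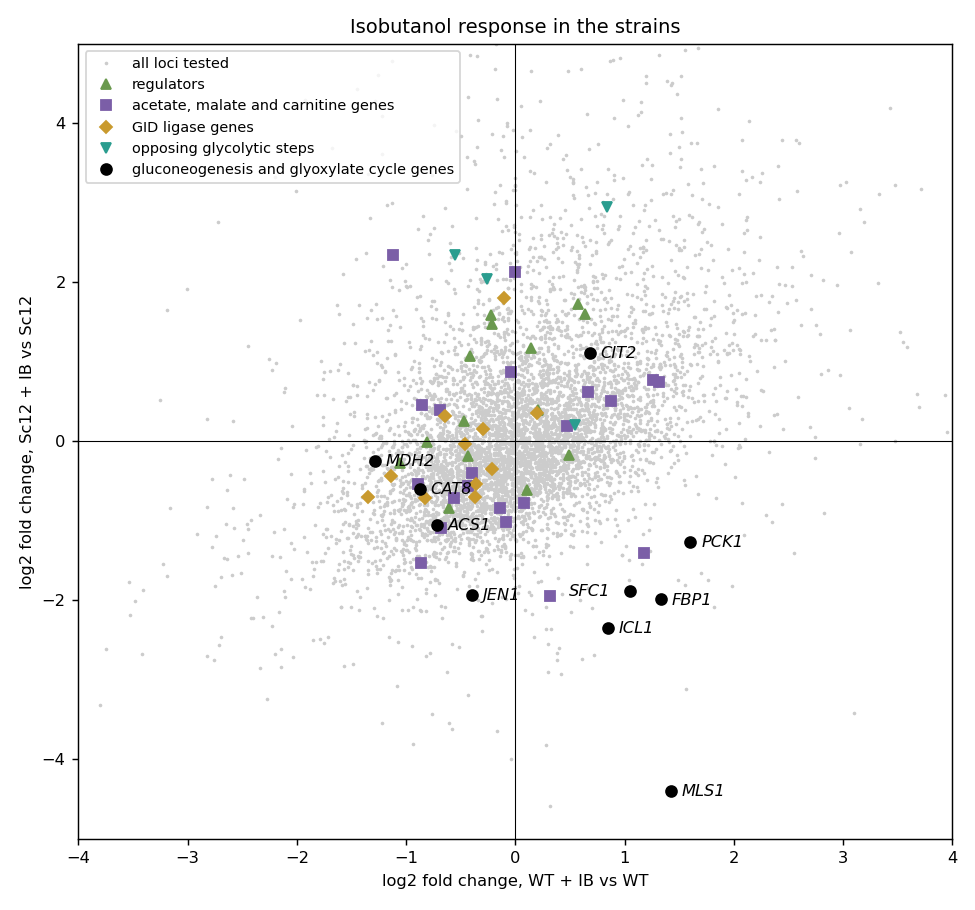
Log2 fold change with isobutanol in WT (horizontal axis) and in Sc12 (vertical axis) for all loci tested (grey), the 10 genes (black, named) and 4 lists of related genes (colours), with 30 loci outside the axes. *PCK1*, *FBP1*, *SFC1*, *ICL1* and *MLS1* lie to the right of 0 and below 0, with *MLS1* at 1.42 and -4.40.

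The difference between the strains in the isobutanol response was tested as an interaction. It was called for 7 members, 6 with a lower response in Sc12 and *MDH2* with a higher one, against 25.3% of all loci (16% higher and 9.27% lower). The largest was that of *MLS1*, whose 2.68-fold rise in WT and 21.1-fold fall in Sc12 gave an interaction of -5.82 (SE 0.29, adjusted p = 3.24e-14). For *CIT2*, *ACS1* and *CAT8* the interaction was 0.43 (SE 0.24), -0.34 (SE 0.20) and 0.28 (SE 0.12) and did not pass the test, but with library totals that of *ACS1* was called (-1.10, adjusted p = 2.56e-05). With that scaling the median of all loci was -0.80. The *MDH2* interaction (1.04, SE 0.21) was lost with library totals (0.28) and without WT + IB replicate 3 (0.99). The effect of tryptophan under isobutanol also differed between strains for 9 of the 10 members, 8 higher and *CIT2* lower in Sc12, against 25.5% of all loci (9.94% higher and 15.5% lower). *MDH2* (0.42, SE 0.21) was called with library totals (1.16, adjusted p = 3.77e-05), where the median of all loci was 0.75. The calls of *CAT8* (1.02), *JEN1* (1.12) and *CIT2* (-1.15) in this interaction did not hold without each library: *CAT8* was at 0.970 when WT + IB replicate 3 was left out, 0.985 for WT + IB + Trp replicate 2, 0.973 and 0.995 for Sc12 + IB replicates 2 and 3, and 0.983 for Sc12 + IB + Trp replicate 1. *JEN1* was at 0.911 with WT + IB replicate 1 left out, 0.838 without WT + IB + Trp replicate 2 and 0.988 without Sc12 + IB + Trp replicate 3, and *CIT2* at -0.894 without WT + IB + Trp replicate 3 and -0.971 without Sc12 + IB + Trp replicate 2.

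The responses can be set beside the promoter letters shown above. Among the 5 genes with CSRE letters, the log2 fold change in Sc12 + IB vs Sc12 was -4.40 for *MLS1*, -2.35 for *ICL1*, -1.26 for *PCK1*, -1.05 for *ACS1* and -0.24 for *MDH2*, which has the most matches. Among those without, *FBP1*, *JEN1* and *SFC1* were at -1.99, -1.93 and -1.88, *CAT8* was at -0.60 and *CIT2* at 1.12. These are descriptions of 10 genes, with no test.

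Genes that act around the pathway were described from 4 lists. The regulators were 14 genes, of which 6 were called in Sc12 + IB vs Sc12, all higher, and 1 in WT + IB vs WT, lower. Over all loci, 27.8% were called in the first comparison (17.2% higher) and 20.7% in the second (8.89% lower). In Sc12 + IB vs Sc12 the largest changes were those of *MIG3* (1.73, SE 0.16), a Mig1-like repressor, *SIP4* (1.605, SE 0.19), the second CSRE activator, and *PFK27* (1.58, SE 0.16), a kinase that makes fructose-2,6-bisphosphate, an inhibitor of the Fbp1 enzyme. A repressor, an activator and a kinase were thus among the regulators that were higher. Mean levels of *HAP4*, *SNF1* and *ERT1* were higher as well, at 710, 279 and 93.1 CPM in Sc12 + IB against 314, 132 and 33.3 CPM in Sc12. Whether the list as a whole moved towards activation or repression was not tested. *MIG3* was at 78.2 to 110 CPM in Sc12, at 265 to 378 CPM in Sc12 + IB and at 35.5 to 53.9 CPM in Sc12 + IB + Trp, with no overlap. In WT the called regulator was *MIG2* (-1.05, SE 0.12), another repressor.

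Of 21 other genes of acetate, malate and carnitine use, 2 were higher and 5 lower in Sc12 + IB vs Sc12, and 3 higher and 1 lower in WT + IB vs WT. Over all loci 17.2% were higher and 10.6% lower in Sc12, and 11.8% higher and 8.89% lower in WT. *PYC2*, a pyruvate carboxylase, was 2.34 higher on the log2 scale in Sc12 (SE 0.16) and *MAE1*, the mitochondrial malic enzyme, 2.14 higher (SE 0.11). *ADH2*, the glucose-repressed alcohol dehydrogenase that oxidises ethanol, was at 492 to 513 CPM in Sc12 and at 118 to 146 CPM in Sc12 + IB (log2 fold change -1.94, SE 0.21), and at 848 to 1476 CPM in Sc12 + IB + Trp. In WT + IB vs WT the largest were *ACS2*, the other acetyl-CoA synthetase (1.31, SE 0.13), and *DIC1*, the mitochondrial dicarboxylate carrier (1.26, SE 0.12). *IDP2*, the cytosolic NADP-dependent isocitrate dehydrogenase, was named after its values were seen, since it went the way of *FBP1*. It was at 262 to 311 CPM in WT and 576 to 697 CPM in WT + IB, and at 248 to 298 CPM in Sc12 and 97.7 to 109 CPM in Sc12 + IB (log2 fold changes 1.17 and -1.40).

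The GID ubiquitin ligase marks gluconeogenic enzymes for degradation when glucose returns. Of its 11 genes, 1 was called in Sc12 + IB vs Sc12 (27.8% of all loci), *VID24*, which encodes the subunit that recognises Fbp1. *VID24* was at 392 to 446 CPM in Sc12 and at 1380 to 1639 CPM in Sc12 + IB (log2 fold change 1.81, SE 0.10). In WT + IB vs WT (20.7% of all loci called) they were *GID11* (-1.35, SE 0.11), a substrate receptor, and *RMD5* (-1.14, SE 0.08), a RING subunit. The protein levels of the enzymes were not measured.

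The glycolytic steps that oppose *FBP1* and *PCK1* are phosphofructokinase (*PFK1* and *PFK2*) and pyruvate kinase (*CDC19* and its isoenzyme gene). Of these 4 genes, 3 were higher in Sc12 + IB vs Sc12, against 17.2% of all loci, *CDC19* by 2.95 (SE 0.23), *PFK2* by 2.34 (SE 0.16) and *PFK1* by 2.04 (SE 0.11). In WT + IB vs WT their log2 fold changes were 0.84 (*CDC19*), -0.55 (*PFK2*) and -0.26 (*PFK1*), below the fold threshold. With tryptophan, 2 of the 4 were called higher in WT + IB + Trp vs WT + Trp, against 11.2% of all loci. None was called in Sc12 + IB + Trp vs Sc12 + Trp. The mean of *CDC19* was 2412 CPM in WT + Trp and 6814 CPM in WT + IB + Trp, and that of its isoenzyme gene 165 and 343 CPM. The ratio within a library, per length of coding sequence, needs no scaling between libraries, and was chosen after the values were seen. *FBP1* per *PFK1* was 185 to 221% in Sc12, 10.5 to 14.8% in Sc12 + IB and 329 to 425% in Sc12 + IB + Trp. In WT this ratio was 112 to 132% and in WT + IB 290 to 422%. *PCK1* per *CDC19* was 32.6 to 34.7% in Sc12, 1.42 to 2.25% in Sc12 + IB and 112 to 147% in Sc12 + IB + Trp, and it was 16.0 to 20.1% in WT and 23.8 to 41.2% in WT + IB. In WT + Trp it was 18.2 to 29.1% and in WT + IB + Trp 16.0 to 33.8%, which overlapped. *FBP1* per *PFK1* was 136 to 138% and 206 to 340% in these 2 groups. Both ratios were lower in the 3 Sc12 + IB libraries than in all others.

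By Pearson r of log2(CPM + 1) over the 24 libraries, the loci most like *FBP1* among all 6346 were *OPI3* (0.98), *RTT109* (0.97), *SFC1* (0.97), *POL31* (0.97) and *REG2* (0.96). *OPI3*, a phospholipid methyltransferase gene, had mean levels of 577 CPM in WT, 1287 in WT + IB, 441 in Sc12 and 151 in Sc12 + IB. *REG2*, a subunit of the phosphatase that takes part in glucose repression, had 140, 328, 153 and 77.9 CPM in the same order. The loci most like *MLS1* were *ICL1* (0.97), *DAL2* (0.95), *CNE1* (0.94), *YER186C* (0.94) and *CHA1* (0.94). *CHA1*, the serine and threonine deaminase gene, had mean levels of 909, 1498, 1302 and 202 CPM in that order.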

How the data were processed

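RNA from 24 libraries was sequenced by the authors as 50-bp single-end reads. Per the labels and the study's methods, reads were trimmed with Trimmomatic 0.39 and aligned to sacCer3 with TopHat2 2.1.1, and Cufflinks 2.2.1 gave values per locus. The gene annotation is not given in the sources used here. The estimated count of fragments per locus was deposited by the authors without scaling, and 98.83% were whole within a tolerance of 0.001. The FPKM values were deposited by the authors after their length and library scaling, and served here for the filter and for an alternative. The authors' table of comparisons (fold changes, p-values and q-values) was not used.

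Fragments were rounded and fitted with edgeR 4.0.16 in R 4.3.3 (quasi-likelihood, TMM, 8 group means, 24 libraries, 16 residual degrees of freedom) over the 6346 loci whose mean FPKM reached 1, which all 10 genes passed. The common biological coefficient of variation was 10.36%. SE is the absolute log2 fold change divided by the square root of F. The comparisons were 12 pairs of groups and 2 interactions. For 24 loci the authors' estimate had failed, and 102 loci join several genes, none of them named here. The fit was tested on simulated data. Coordinates and sequences are from RefSeq R64, which is the sacCer3 assembly.

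The genes and lists were chosen with earlier results of these data known. Named are the 10 genes, *TRP5*, from each list the 3 largest changes among those called in Sc12 + IB vs Sc12 and the 2 largest in WT + IB vs WT, and the 5 loci most like *FBP1* and *MLS1*. *IDP2*, *HAP4*, *SNF1* and *ERT1* are named outside this rule, after their values were seen. Alternatives were library totals, DESeq2 1.42.0, limma 3.58.1 on log2(FPKM + 1) and log2(FPKM + 0.1), no filter, a mean FPKM of at least 10, only the groups compared, a replicate block, leaving out each library, and leaving out the make-up libraries. Python 3.11.15 with pandas 2.3.3 and matplotlib 3.10.9 made the summaries and plots.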

Additional observations from a re-analysis of the deposited data

Results flagged for a closer look

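The response to isobutanol differed between the strains for 7 of the 10 genes by the interaction term of the edgeR fit (Sc12 minus WT, log2 scale). It was -5.82 for *MLS1*, -3.32 for *FBP1*, -3.19 for *ICL1*, -2.93 for *SFC1*, -2.87 for *PCK1* and -1.53 for *JEN1*, and 1.04 for *MDH2*. The adjusted p-values were 3.24e-14 to 2.36e-04, and 25.3% of all loci were called (16% higher and 9.27% lower). For *FBP1*, *PCK1*, *MLS1* and *SFC1* the gene was called higher in WT and lower in Sc12. For *MDH2* the difference came with a called fall in WT and an uncalled difference in Sc12. The *MDH2* interaction was lost with library totals (0.28) and without WT + IB replicate 3 (0.99).

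The effect of tryptophan under isobutanol also differed between the strains for 9 genes, against 25.5% of all loci. It was 3.85 for *MLS1*, 2.99 for *FBP1*, 2.99 for *PCK1*, 2.37 for *ICL1*, 2.31 for *SFC1*, 1.99 for *ACS1*, 1.12 for *JEN1*, 1.02 for *CAT8* and -1.15 for *CIT2*, with adjusted p-values of 5.10e-12 to 0.00392. The calls of *JEN1*, *CAT8* and *CIT2* were each lost under some of the alternatives. Both interactions use the Sc12 + IB and WT + IB libraries, so they are not independent of each other.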

How the results depend on the processing

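Over all alternatives, 1552 of 1620 log2 fold changes of the 10 genes kept their direction and their side of the threshold. Of the rest, 30 lost the call, 26 gained it and 12 changed sign. Left out of these values were WT + IB + Trp vs WT + IB, WT + Trp vs WT, Sc12 + Trp vs Sc12 and Sc12 + Trp vs WT + Trp. No called gene changed sign. Of 222 counts of called genes, 217 stayed within 1.5 times. In Sc12 + IB + Trp vs Sc12 + Trp the count was 2 rather than 1 with limma on log2(FPKM + 1) and log2(FPKM + 0.1), the added gene being *FBP1*. In Sc12 vs WT it was 0 rather than 1 with both, and 0 to 1 when single libraries were left out (0 without Sc12 replicate 1). Sign changes with limma, at the larger and the smaller pseudocount, were those of *FBP1* (0.233 and 0.235) and *CIT2* (-0.0252 and -0.0253) in Sc12 vs WT. With library totals *MDH2* (-0.0459), *CIT2* (-0.0664) and *CAT8* (-0.123) changed sign in Sc12 + IB vs WT + IB, and *CIT2* (-0.332) and *CAT8* (-0.48) in the isobutanol interaction, where the median of all loci shifted from -0.04 to -0.80. When single libraries were left out, *JEN1* in WT + IB + Trp vs WT + Trp ranged from -0.484 to 0.0637 (without WT + IB + Trp replicate 2), and in Sc12 + IB + Trp vs Sc12 + Trp *MDH2* ranged from -0.155 to 0.0898 (without Sc12 + IB + Trp replicate 2) and *CIT2* from -0.0121 (without Sc12 + IB + Trp replicate 3) to 0.304. The tryptophan interaction of *CAT8* was lost with only the groups compared (0.992), that of *JEN1* with limma (0.842 and 0.844) and that of *CIT2* with library totals (-0.414). *ACS1* in Sc12 + IB + Trp vs WT + IB + Trp was lost with limma (0.927 and 0.928). Apart from library totals, the causes were not tested.

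The count over all loci in Sc12 + IB vs Sc12 was 3181 with library totals (15.6% higher) against 1764 (62% higher). It was 2839 against 1525 in Sc12 + IB + Trp vs Sc12 + IB, 2666 against 1726 in Sc12 + IB vs WT + IB, and 2899 against 1604 and 2776 against 1617 in the isobutanol and tryptophan interactions. With limma on log2(FPKM + 1) it was 94 against 210 in Sc12 vs WT, 98 against 204 in Sc12 + Trp vs WT + Trp, 0 against 24 in Sc12 + Trp vs Sc12, and 999 against 1604 and 1002 against 1617 in the interactions. The share of called loci that were higher moved with library totals from 39.1 to 84.5% in Sc12 + IB + Trp vs Sc12 + IB, from 59.3 to 19.2% in Sc12 + IB vs WT + IB, from 53.8 to 69.6% in Sc12 vs WT and from 48.5 to 63.8% in Sc12 + Trp vs WT + Trp. Whether the replicate numbers pair the samples was not settled by the correlations of deviations, which ranged from -0.34 to 0.76. Of 36 same-numbered pairs, 13 were above 0.1 and 14 correlated best with their own number. With the replicate block the counts of called genes stayed at 5 in WT + IB vs WT and 8 in Sc12 + IB vs Sc12, and no call of the 10 genes changed in any comparison. The least covered value of the 10 genes rests on 193 fragments.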
